A study of Mus musculus with 6 samples.

Results

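The genes that build cholesterol and fatty acids were followed in mouse bone marrow-derived macrophages, cells grown from bone marrow in the growth factor M-CSF. The set was given as a list of 31 gene symbols, and all 31 were found among the 36706 entries of the tables and passed the filter on low counts, as did 12968 genes in all. It holds a sterol arm of 19 genes, a fatty acid arm of 9 genes and 3 genes of the regulators that switch both on. The macrophages came from wild-type (WT) mice and fell into 2 groups of 3 libraries, left untreated or exposed to interferon-gamma (IFN-γ), an activating cytokine made by lymphocytes, with 3 h in the labels of both. All were grown in medium with 10% serum and 20 ng/mL M-CSF. Whether the replicates were different mice or cultures is not in the labels. The tests therefore measure the spread between these libraries only, which may be technical.

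Cholesterol is built from acetyl-CoA by way of mevalonate, isoprenoid diphosphates and squalene, while fatty acids are built from malonyl-CoA and then lengthened and desaturated. Both routes draw on cytosolic acetyl-CoA and are driven by the SREBP transcription factors, which are held in the endoplasmic reticulum with their escort SCAP while sterols are plentiful. SREBP2 is known mainly for the sterol genes and SREBP1 mainly for the fatty acid genes. In macrophages the supply of sterols and unsaturated fatty acids is known to bear on membranes and on inflammatory signalling.

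Total counts ran from 28133342 to 34233607 per library, and 3 counts in a library, the floor used here, came to between 0.089 and 0.101 CPM (the count as a share of its library's total, scaled by TMM, a factor computed from the bulk of genes). The treatment was visible in each library: Irf1, an interferon-induced transcription factor gene, was at 32.4, 33.5 and 33.4 CPM untreated and at 956, 928 and 940 CPM with IFN-γ, and Acod1 and Gbp2 rose by 5.92 and 7.04 on the log2 scale. Macrophage markers were present, with the lowest of 8 at a mean of 69.1 CPM. With IFN-γ, 2 of them rose and 1 fell. Adipocyte markers, which would go with fat synthesis, summed to at most 0.246 CPM in any library, with Plin1, Lep and Cidec at 0 counts throughout. The summed level of 7 neutrophil markers was between 70.5 and 93.9 CPM untreated and between 120 and 133 CPM with IFN-γ, mostly from S100a8 and S100a9, and 3 of them rose. For 6 dendritic cell markers it was between 1.96 and 2.49 CPM untreated and between 6.02 and 6.54 CPM with IFN-γ, and 3 rose. The part of these cells in the results was not tested. Fewer cells of a type and less RNA per cell cannot be told apart in such libraries.

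After IFN-γ the fatty acid arm was lower and the sterol arm, taken over its members, stayed near its untreated level. Of 9 fatty acid genes, 6 fell and none rose, with a median log2 fold change of -0.28. Of 19 sterol genes, 4 fell, 2 rose and 13 were not called, with a median of -0.002. Over all genes tested 16.8% were called lower and 19.6% higher, with a median of -0.014. A call is an adjusted p under 0.05 in the quasi-likelihood test of edgeR. The groups did not overlap in CPM for 5 of the 9 fatty acid genes, in each case with IFN-γ lower, and for 9 of the 19 sterol genes in either direction, against 50.1% of all genes in either direction and 24.2% with IFN-γ lower. The sterol calls depended on the libraries more than their number shows: without 1 library, 1 sterol gene fell (IFN-γ replicate 2 or 3 left out), 2 fell (IFN-γ replicate 1 or untreated replicate 1 or 3) or 5 fell (untreated replicate 2), and 1 rose in each case but the last, which kept 2. The fatty acid arm then had 4 to 7 genes lower and 0 higher, and the background of falls ran from 11% to 21.1%. The counts also moved with scaling. With upper quartile scaling 6 sterol genes fell and 1 rose, where 31.6% of all genes were lower and 13.9% higher. With total counts alone 10 sterol genes fell and 1 rose, where 34.9% were lower and 12.8% higher. The fatty acid arm had 6 lower and 0 higher under both. With each library's trend on exon length removed, 5 sterol genes fell and 2 rose and 6 fatty acid genes fell, where 20.2% of all genes were lower and 25.8% higher.

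**Figure D1:**
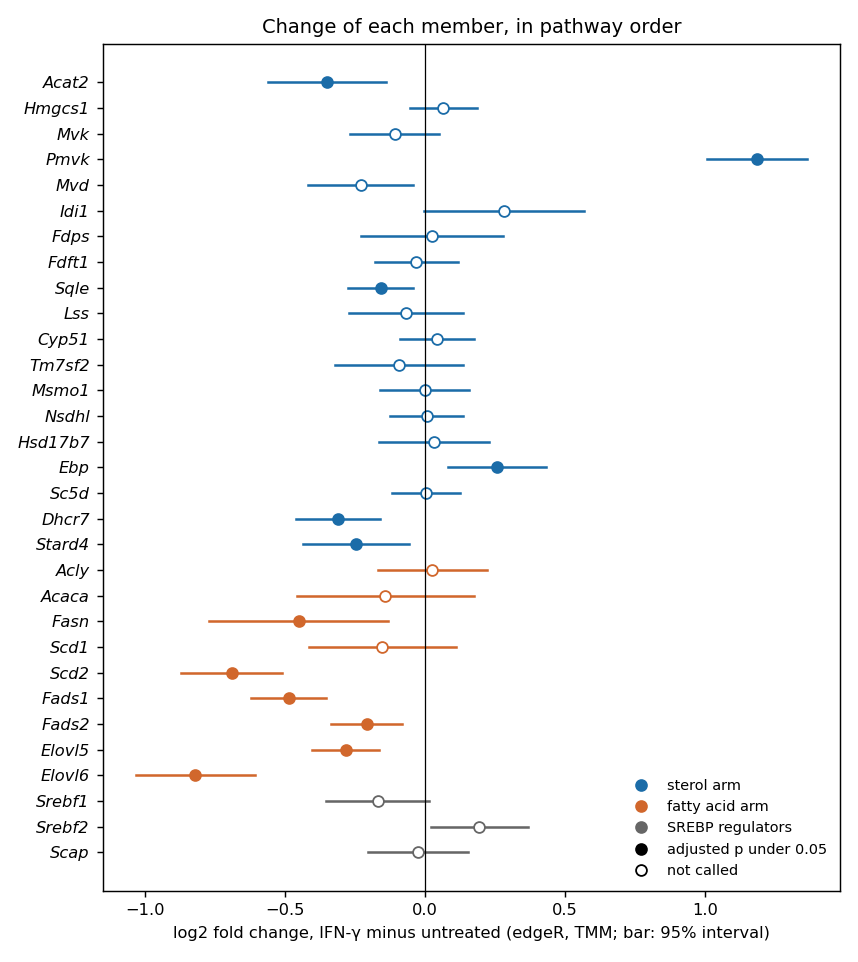
Log2 fold change of each of the 31 genes (x axis, IFN-γ minus untreated, with unadjusted 95% intervals), in pathway order, filled where the adjusted p was under 0.05. The sterol genes (blue) scatter about 0 apart from Pmvk at 1.19, and the fatty acid genes (orange) lie from -0.82 to 0.03.

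The contrast of the arms was present library by library. As a mean over the arm of each gene's log2 CPM relative to its untreated mean, the fatty acid genes were at 0.056, -0.117 and 0.062 in untreated replicates 1, 2 and 3 and at -0.267, -0.376 and -0.424 with IFN-γ. The sterol genes were at -0.020, 0.030 and -0.010 untreated and at -0.002, 0.021 and 0.036 with IFN-γ. Every IFN-γ library was below every untreated one for the fatty acid arm, and the groups overlapped for the sterol arm. That overlap depends on Pmvk, which was at 1.11, 1.21 and 1.24 in the IFN-γ libraries. Over the other sterol genes every IFN-γ mean was slightly below every untreated one. Summed CPM of the sterol genes ran from 1755 to 1841 untreated and from 1776 to 1856 with IFN-γ. Without Pmvk the sterol sum ran from 1726 to 1809 CPM untreated and from 1711 to 1785 CPM with IFN-γ. For the fatty acid genes the sum was 777 to 877 CPM untreated and 605 to 696 CPM with IFN-γ. Scd2 is the largest term of that sum, and without it the ranges were 498 to 558 and 426 to 492 CPM.

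**Figure D2:**
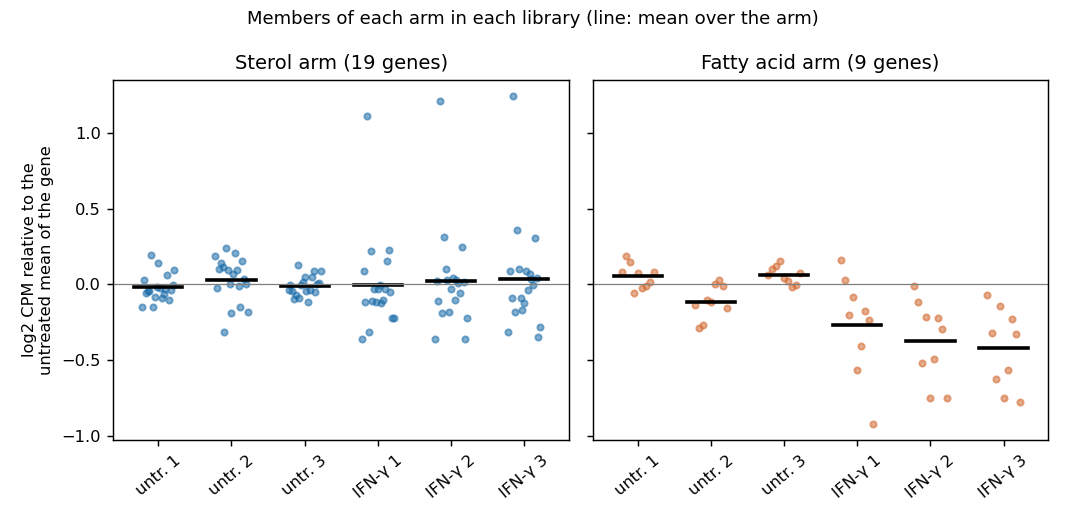
Log2 CPM of each gene relative to its own untreated mean (y axis) in each of the 6 libraries (x axis), with points for genes and a line for the mean over the arm. The lines of the sterol arm stay between -0.020 and 0.036, and those of the fatty acid arm drop from between -0.117 and 0.062 to between -0.424 and -0.267.

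The median of the fatty acid arm was below that of the sterol arm by a log2 difference of -0.282, and no test was made because members are not replicates. The difference stayed between -0.373 and -0.244 over 20 other settings, the value of -0.373 being a difference of means over members. The lowest difference of medians was -0.367, with a filter of 5 CPM in 3 samples. Scaling leaves the difference unchanged by construction, since a scaling moves every gene alike. Each arm's own median did move: with total counts alone, which shifted the median of all genes by -0.170, the sterol median was -0.171 and the fatty acid median -0.454. Untreated replicate 2 gave the lowest fatty acid mean of its group and the highest sterol mean. Its levels also sloped on exon length more than those of any other library (-0.139 on the log2 scale for each doubling, relative to the rest of its group), and fatty acid genes are longer, with a median of 5453 exon bases against 2867 in the sterol arm. With each library's trend on length removed the difference was -0.274, and without untreated replicate 2 it was -0.303.

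In the first part of the sterol route, from acetyl-CoA to farnesyl diphosphate, Pmvk rose, Acat2 fell and 5 of 7 genes were not called. Of the 12968 genes tested, 8253 were not called. Pmvk encodes phosphomevalonate kinase, which adds the second phosphate to mevalonate. It was at 29.0, 32.9 and 28.0 CPM in untreated replicates 1, 2 and 3 and at 64.6, 69.1 and 70.7 CPM with IFN-γ, from 872, 973 and 943 counts against 2096, 2121 and 2196. Each IFN-γ library held about the same level and all lay far above the untreated ones. Its log2 fold change of 1.19 ± 0.08 (SE, as in all that follow) corresponds to 2.28-fold (adjusted p = 9.08e-06). It stayed between 1.02 and 1.26 with the call kept over all 16 other settings. The tables place Pmvk on chromosome 3, plus strand, from 89361848 to 89376321, with 6 exon blocks of 3401 bases. The tables name no genome build for their coordinates. None of the 50-base stretches of its GENCODE M21 transcripts occurred in another gene, and its exons overlapped none.

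The enzymes on either side of phosphomevalonate kinase did not follow it. Mvk, the mevalonate kinase gene before it, was at 23.2, 25.9 and 23.3 CPM untreated and 22.2, 22.3 and 22.7 CPM with IFN-γ, a log2 fold change of -0.11 ± 0.07 (adjusted p = 0.265). Mvd, the gene of the decarboxylase after it, was at 14.9, 16.6 and 14.6 CPM against 12.4, 13.5 and 13.5 CPM, a log2 fold change of -0.23 ± 0.08 (adjusted p = 0.0594). The untreated libraries were higher without overlap in both cases, though by less than the test requires. In TPM, which is per length, untreated macrophages held 29.5 ± 0.437 of Mvk, 19.1 ± 0.333 of Pmvk and 17.9 ± 0.157 of Mvd (mean ± SD, n = 3). With IFN-γ the levels were 25.2 ± 0.677, 40.1 ± 0.558 and 14.1 ± 0.25 TPM, so that Pmvk passed from between its neighbours to above both. Mvd passed the test with upper quartile scaling (-0.38), total counts (-0.40), a filter of 5 CPM in 3 samples (-0.26) or the length trend removed (-0.19), and Mvk with upper quartile scaling (-0.26) or total counts (-0.28). Exons of Mvd overlapped a gene on the other strand, LOC118567623, by 28.6% of their length, with a mean of 47.8 counts against 444.7 for Mvd, and the use of strand in counting is not given in the sources used here.

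Acat2, the gene of the cytosolic thiolase that makes acetoacetyl-CoA, was at 26.0, 33 and 28.2 CPM untreated and 22.6, 22.5 and 23.3 CPM with IFN-γ. The untreated level was higher in every library, and the log2 fold change was -0.35 ± 0.09 (adjusted p = 0.0182). The call was lost without IFN-γ replicate 1 (adjusted p = 0.0508), 2 (0.0699) or 3 (0.0548), and 39.1% of the 50-base stretches of Acat2 occur in another gene, mainly Acat3. Hmgcs1, the cytosolic HMG-CoA synthase gene and a textbook SREBP target, was at 260, 250 and 253 CPM untreated and at 270, 258 and 270 CPM with IFN-γ. Its groups overlapped, and the interval of its log2 fold change ran from -0.055 to 0.18 around 0.06. Fdps, the farnesyl diphosphate synthase gene, was at 164, 214 and 171 CPM against 168, 195 and 195 CPM. Idi1, the isopentenyl diphosphate isomerase gene, was at 60.0, 42.2 and 57.3 CPM against 61.2, 65.3 and 67.4 CPM, with untreated replicate 2 well below the rest (log2 fold change 0.28 ± 0.12, adjusted p = 0.115). Its call was made only with the replicate number as a block (adjusted p = 0.0443). Sequence shared with another gene came to 26.2% for Fdps and 17.7% for Idi1, so these levels are uncertain as single genes.

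From squalene to cholesterol, 8 of 11 genes were not called, against 8253 of the 12968 genes tested. The log2 fold changes of these 8 genes lay between -0.094 and 0.042. Their unadjusted 95% intervals together reached from -0.32 to 0.23. Msmo1, which acts on the methyl groups of early sterols, had the highest CPM of the sterol genes, at 286, 319 and 291 untreated and 278, 304 and 312 with IFN-γ. Cyp51, the lanosterol demethylase gene, was at 221, 236 and 218 CPM against 225, 231 and 239 CPM. Fdft1 (squalene synthase), Lss (lanosterol synthase), Tm7sf2, Nsdhl, Hsd17b7 and Sc5d, which encode later sterol-modifying enzymes apart from the first pair, likewise had groups that overlapped. Total counts alone put Fdft1 (-0.20), Tm7sf2 (-0.26), Msmo1 (-0.17) and Sc5d (-0.167) past the test as lower. That scaling shifted the median of all genes by -0.170, and Tm7sf2 was already at -0.094 in the main fit. Lss was called lower without untreated replicate 2 (-0.16). Fdft1 exons overlapped those of Ctsb on the other strand by 7.43% of their length, and Ctsb had a mean of 445998 counts against 2425 for Fdft1.

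The 3 called genes of this stretch changed by small amounts. Dhcr7, which encodes the reductase of the last step to cholesterol in one branch, was at 27.0, 27.0 and 27.2 CPM untreated and 23.1, 21 and 21.2 CPM with IFN-γ. The groups stood clear of each other, and the log2 fold change of -0.31 ± 0.07 (adjusted p = 0.00668) was called in all 16 other settings. Sqle, the squalene epoxidase gene and a control point of the route, was at 192, 195 and 197 CPM against 179, 171 and 173 CPM, without overlap. Its log2 fold change was -0.16 ± 0.05 (adjusted p = 0.0405), and the call was lost with no filter on low counts (0.123), with the replicate block (0.0766) and on leaving out untreated replicate 1 (0.0856) or 3 (0.115), and likewise IFN-γ replicate 2 (0.178) or 3 (0.142). Ebp, a sterol isomerase gene, was at 57.4, 68.7 and 59.5 CPM untreated and 72.3, 73.2 and 76.3 CPM with IFN-γ. Its log2 fold change was 0.26 ± 0.08 (adjusted p = 0.03), and untreated replicate 2 came nearest to the IFN-γ libraries. That rise was lost with upper quartile scaling (0.11) and total counts (0.09). It was also lost on leaving out untreated replicate 1 (adjusted p = 0.091) or 3 (0.118), and likewise IFN-γ replicate 1 (0.0692), 2 (0.087) or 3 (0.108).

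Stard4, a carrier that moves sterol between membranes, was at 90.0, 74.0 and 89.6 CPM untreated and 72.3, 72.3 and 69.2 CPM with IFN-γ. Untreated replicate 2 lay close to the treated libraries, without overlap. The log2 fold change was -0.25 ± 0.08 (adjusted p = 0.0473). It lost its call with limma-voom (0.0553) and on leaving out untreated replicate 1 (0.133) or 3 (0.147), and likewise IFN-γ replicate 1 (0.0977), 2 (0.118) or 3 (0.149).

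In the fatty acid arm the called falls were those of the synthase gene, of 3 of the 4 desaturase genes and of both elongase genes. Scd1 was the desaturase gene not called. Of the 2 genes that supply precursors, neither was called. Acly, whose ATP citrate lyase makes cytosolic acetyl-CoA for both arms, was at 180, 155 and 178 CPM untreated and 191, 169 and 162 CPM with IFN-γ. Acaca, the gene of acetyl-CoA carboxylase, which makes malonyl-CoA, was at 29.4, 21.1 and 27.7 CPM against 26.4, 23.9 and 20.6 CPM. Both overlapped between groups, and Acaca was called lower without untreated replicate 2 (log2 fold change -0.27, adjusted p = 0.044). Of the Acaca stretches, 30.4% occur in another gene, mainly Gm5182.

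Fasn, the gene of the multienzyme that builds palmitate, was at 95.2, 71.4 and 93.5 CPM untreated and 74.6, 59.8 and 55.7 CPM with IFN-γ. The highest treated library lay above the lowest untreated one, and the log2 fold change was -0.45 ± 0.14 (adjusted p = 0.0345). The call was lost on leaving out untreated replicate 1 (adjusted p = 0.0875) or 3 (0.103), and likewise IFN-γ replicate 2 (0.116) or 3 (0.123).

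Stearoyl-CoA desaturases make monounsaturated fatty acids, and these macrophages carried almost only Scd2 of the listed pair. Scd2 was at 319, 279 and 312 CPM untreated and fell to 204, 179 and 179 CPM with IFN-γ, with a wide gap between the groups. The log2 fold change was -0.69 ± 0.08 (adjusted p = 0.000246), or 62% of the untreated level, and the call held over all 16 other settings (-0.86 to -0.65). Scd1 was at 3.36, 3.25 and 3.88 CPM untreated and 3.3, 3 and 3.16 CPM with IFN-γ, from 92 to 131 counts per library. Its groups overlapped and its log2 fold change was -0.15 ± 0.11, with an interval from -0.415 to 0.11. Scd1 and Scd2 lie near each other on chromosome 19, on opposite strands, from 44382889 to 44396148 and from 44282115 to 44295303 in the tables' coordinates, and share 4.56% and 3.97% of their 50-base stretches with other genes.

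Fads1 and Fads2 encode the desaturases that act in turn on the way to highly unsaturated fatty acids. Fads1 fell from 102, 104 and 105 CPM to 78.2, 73.8 and 70.0 CPM, with tight untreated values and no overlap. Its log2 fold change was -0.49 ± 0.06 (adjusted p = 0.000344), called over all 16 other settings. Fads2 fell from 37.1, 38.1 and 37.0 CPM to 33.1, 32.0 and 32.0 CPM, also without overlap but by less, with a log2 fold change of -0.21 ± 0.055 (adjusted p = 0.0188). That call was lost with no filter on low counts (0.0555) and without untreated replicate 3 (0.0538) or IFN-γ replicate 2 (0.0963) or 3 (0.084).

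Both elongase genes fell. Elovl6, whose product lengthens palmitate toward stearate, was at 21.6, 18.3 and 21.5 CPM untreated and 10.8, 12.1 and 11.9 CPM with IFN-γ. This was the largest fall among the 31 genes, with a log2 fold change of -0.82 ± 0.09 (adjusted p = 0.000231), or 56.6% of the untreated level, and it ranged from -0.99 to -0.78 over the 16 other settings. The tables place Elovl6 on chromosome 3, plus strand, from 129326035 to 129432144. Elovl5, whose product lengthens polyunsaturated fatty acids, was at 89.3, 87.8 and 87.9 CPM against 74.9, 72.1 and 70.5 CPM. The replicates were close and the groups apart, and the log2 fold change of -0.28 ± 0.05 (adjusted p = 0.00335) was called over all 16 other settings.

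**Figure D3:**
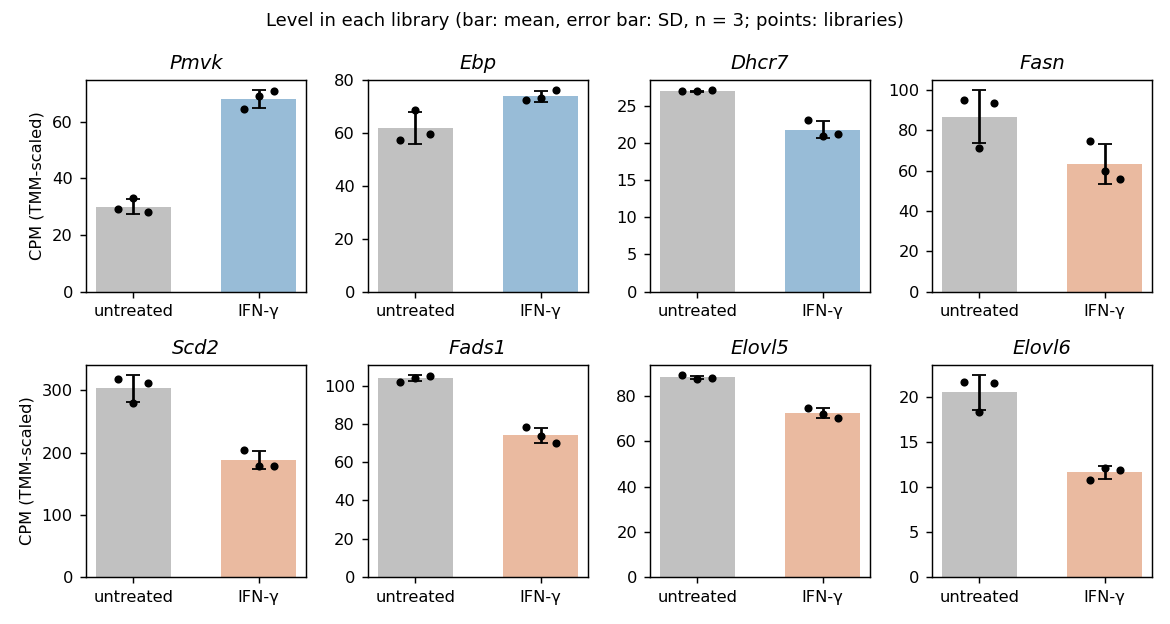
CPM (y axis, from 0) of 8 called genes in untreated and IFN-γ libraries, with bars for means, error bars for SD (n = 3) and points for libraries. Pmvk rises from 30 to 68.1 CPM on average, Scd2 falls from 303 to 188 CPM, and Fasn is the panel in which points of the groups overlap.

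The ratios within pairs of related genes did not overlap between the groups, though the design cannot bring them past the test. Ratios of TPM in the same library do not depend on library scaling, and 4 pairs were compared. Scd2 exceeded Scd1 by ratios of 84.2, 76.1 and 71.2 in untreated replicates 1, 2 and 3 and of 55, 53.1 and 50.4 with IFN-γ. Fads1 to Fads2 was 2.26, 2.24 and 2.34 untreated against 1.94, 1.89 and 1.8. Elovl5 to Elovl6 was 7.75, 9.02 and 7.67 untreated and 13.0, 11.2 and 11.1 with IFN-γ. The ratio of the more abundant gene was lower with IFN-γ in every library of the desaturase pairs and higher in every library of the elongase pair. The exact two-sided permutation p was 0.1 for each of the 4 pairs, raw and adjusted over them, which is the smallest that 3 libraries against 3 allow.

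**Figure D4:**
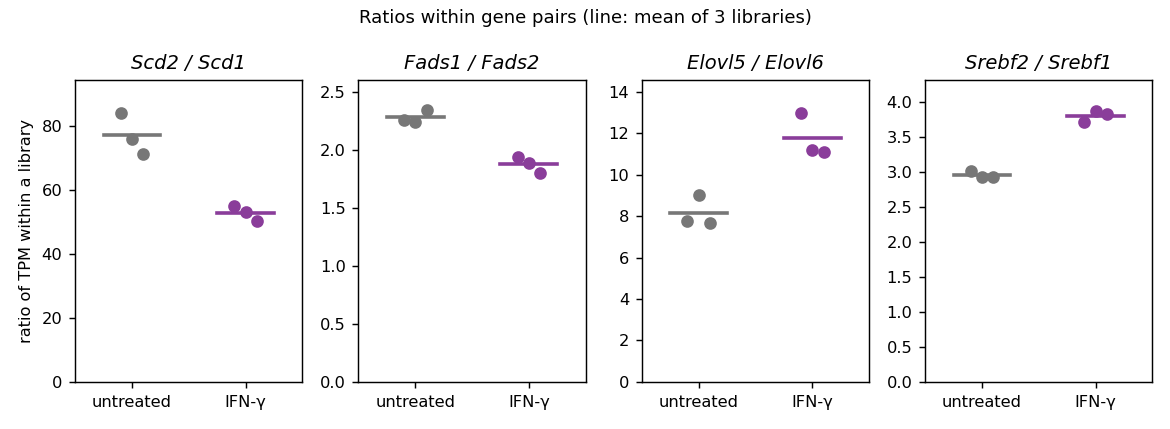
Ratio of deposited TPM within a library (y axis, from 0) for 4 gene pairs, with points for libraries and lines for the mean of 3. The mean ratio goes from 77.2 to 52.8 for Scd2 to Scd1, from 2.28 to 1.88 for Fads1 to Fads2, from 8.15 to 11.8 for Elovl5 to Elovl6 and from 2.96 to 3.81 for Srebf2 to Srebf1.

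The regulators themselves were not called. Srebf2 was at 199, 175 and 202 CPM untreated and 233, 219 and 206 CPM with IFN-γ, a log2 fold change of 0.19 ± 0.075 (adjusted p = 0.0799). Every treated library was above every untreated one, by a narrow margin. Srebf1 was at 57.7, 52.3 and 60.1 CPM untreated and 54.9, 49.4 and 47.0 CPM with IFN-γ, with overlap and a log2 fold change of -0.17 ± 0.08 (adjusted p = 0.139). The TPM ratio of Srebf2 to Srebf1 was 3.01, 2.93 and 2.93 untreated and 3.71, 3.88 and 3.83 with IFN-γ, close within each group and apart between them. With the length trend removed both passed the test, Srebf2 as higher (0.20, adjusted p = 0.00586) and Srebf1 as lower (-0.16, adjusted p = 0.041). Srebf1 was also called lower without untreated replicate 2 (-0.225, adjusted p = 0.0228), with upper quartile scaling (-0.32) and with total counts (-0.34). The counts do not separate the Srebf1 isoforms, and mRNA levels do not show how much SREBP is processed. Scap was at 30.6, 28.2 and 30.8 CPM against 32.1, 28.3 and 27.7 CPM, with overlap.

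A further list of 56 genes held other enzymes, regulators and neighbours of the pathway, of which 50 were tested. Of these, 11 rose and 6 fell, with a median log2 fold change of 0.051, against backgrounds of 19.6% higher and 16.8% lower. The largest change was that of Ch25h, which makes the oxysterol known to hold SREBP back, at 1.23, 1.35 and 1.57 CPM untreated and 34.4, 39.8 and 38.2 CPM with IFN-γ (log2 fold change 4.75 ± 0.11). Rnf145 and Rnf139 encode ubiquitin ligases of the endoplasmic reticulum that have been tied to sterol regulation. Rnf145 was at 27.6, 27.7 and 27.8 CPM untreated and 75.8, 69.5 and 70.9 CPM with IFN-γ, a rise of 1.38 ± 0.06 on the log2 scale, and Rnf139 rose by 0.70 ± 0.08. Exons of Rnf139 overlapped Tatdn1 on the other strand by 50.2% of their length, with a mean of 272.3 counts against 1023.2 for Rnf139.

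Acyl-CoA synthetases, which activate fatty acids for use, moved both ways, and more of those on the list were called higher than lower. Over all genes tested 19.6% were called higher and 16.8% lower, and no test was made of this family. Acsl1 was at 80.8, 69.7 and 78.1 CPM untreated and 415, 383 and 380 CPM with IFN-γ, a rise of 2.37 ± 0.075 on the log2 scale. Acsl3 was at 30.7, 33.3 and 32.6 CPM against 15.9, 16.0 and 14.7 CPM, a log2 fold change of -1.06 ± 0.07, and 10.6% of its exon length overlaps Utp14b on the same strand. Lpin2, a phosphatidate phosphatase gene, rose by 1.28 ± 0.105. These genes, Ch25h and the ubiquitin ligases were called over all 16 other settings. Elovl7, a further elongase gene, and Fads6 were at low levels, with means of 1.49 and 2.25 CPM and of 3.54 and 2.42 CPM untreated and with IFN-γ. Their log2 fold changes were 0.595 ± 0.195 (adjusted p = 0.0447) and -0.55 ± 0.17 (adjusted p = 0.0376). Fads6 lost its call without any library but untreated replicate 2 (adjusted p from 0.0584 to 0.129). Elovl7 lost its call without any library but untreated replicate 1 (0.0579 to 0.165), with DESeq2 (0.0675), with upper quartile scaling (0.0935) and with total counts (0.111).

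The letters of the promoters, which the choice of genes did not use, are described here with no test between the arms. In the RefSeq promoter table of GRCm38.p6, 24 of the 31 symbols had an entry, among them 15 sterol and 6 fatty acid genes. The 250 bases before each listed start site were searched on both strands. The CCAAT box, known to be bound by NF-Y, a partner of SREBP at sterol genes, was spelled CCAAT. It was present in 14 of the 15 sterol genes and in 2 of the 6 fatty acid genes (Fasn and Elovl5), against 40.5% of the 10327 tested genes with an entry and 33.8% of 32851 promoters. With the window extended to 50 bases after the start, 14 of 15 sterol genes and 3 of 6 fatty acid genes (Acly in addition) held it, against 42.9% of tested genes. Acat2 was the sterol gene without it. For Pmvk the match lies before a start site that GENCODE M21 gives to 1 of its 4 transcripts. The sterol regulatory element core, spelled TCACNCCAC, was found in Hmgcs1 alone, against 1.21% of tested genes. The E-box, CACGTG, was in 3 sterol genes and 1 fatty acid gene, against 10% of tested genes. Letters of the interferon pathway were also sought: the GAS element, TTCNNNGAA, and the interferon-stimulated response element (TTTC, any 2 bases, TTTC), were each found in Ebp among the sterol genes and in no fatty acid gene, against 7.26% and 3.47% of tested genes. A match is a description of the letters and not of binding.

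The promoters of 5 genes are shown as examples, each as the 250 bases before the start site in GRCm38.p6, written 5′ to 3′ on the gene's strand. Capitals mark the CCAAT box in either direction (CCAAT or ATTGG) and, in Hmgcs1, also the sterol regulatory element core TCACCCCAC. Hmgcs1 and Mvk stand for the uncalled sterol genes, Ebp for a sterol gene called higher, Fasn for a fatty acid gene called lower and Acly for a fatty acid gene with no match before the start, though it has one within the 50 bases after it.
Hmgcs1 (chr13:119690101-119690350, plus strand): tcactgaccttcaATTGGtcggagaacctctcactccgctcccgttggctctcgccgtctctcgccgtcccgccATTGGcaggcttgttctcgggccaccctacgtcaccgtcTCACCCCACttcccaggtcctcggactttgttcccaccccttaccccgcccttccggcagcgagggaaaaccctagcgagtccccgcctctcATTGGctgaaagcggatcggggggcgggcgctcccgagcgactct
Mvk (chr5:114444019-114444268, plus strand): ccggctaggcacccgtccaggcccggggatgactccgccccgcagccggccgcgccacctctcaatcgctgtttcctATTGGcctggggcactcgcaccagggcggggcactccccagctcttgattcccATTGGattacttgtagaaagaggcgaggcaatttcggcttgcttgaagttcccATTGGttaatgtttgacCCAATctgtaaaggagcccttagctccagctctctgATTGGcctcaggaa
Ebp (chrX:8193513-8193762, minus strand): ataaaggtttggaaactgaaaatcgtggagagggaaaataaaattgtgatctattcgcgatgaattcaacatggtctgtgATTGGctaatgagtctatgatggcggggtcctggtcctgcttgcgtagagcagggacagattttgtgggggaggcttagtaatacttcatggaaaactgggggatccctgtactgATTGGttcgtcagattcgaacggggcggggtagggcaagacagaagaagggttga
Fasn (chr11:120824548-120824797, minus strand): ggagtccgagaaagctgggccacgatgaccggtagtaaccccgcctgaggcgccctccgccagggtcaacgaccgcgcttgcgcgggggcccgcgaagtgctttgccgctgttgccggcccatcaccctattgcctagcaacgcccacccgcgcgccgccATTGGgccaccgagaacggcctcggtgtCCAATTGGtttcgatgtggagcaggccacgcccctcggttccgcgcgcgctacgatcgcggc
Acly (chr11:100528001-100528250, minus strand): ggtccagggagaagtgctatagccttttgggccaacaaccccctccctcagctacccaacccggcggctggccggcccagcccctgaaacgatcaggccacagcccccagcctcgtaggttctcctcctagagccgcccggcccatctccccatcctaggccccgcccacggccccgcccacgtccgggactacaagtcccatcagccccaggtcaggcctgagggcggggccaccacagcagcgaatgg
The Hmgcs1 element lies 137 to 129 bases before the start, between CCAAT boxes at 176 and 45 bases. Mvk has 5 CCAAT boxes in this window and Ebp has 2. In Fasn, 2 of the 3 boxes overlap in opposite directions, from 62 to 55 bases before the start. Acly has none in the bases shown. Among the 6 fatty acid genes with an entry, Fasn and Elovl5 hold the box and were called lower, and Fads2 and Elovl6 were called lower without it.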

How the data were processed

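RNA was measured in 6 macrophage libraries made with a KAPA stranded mRNA kit, as the labels' protocols state. HISAT2 and mm10 are named in the submitters' processing notes, and the counting tool, its strand setting and its handling of multiple hits were not given in the sources used here. Columns in every table hold counts, TPM, FPKM and exon length for 36706 entries, per the file headers. The deposited counts are whole and not normalized, and the tests used them. The TPM deposited by the authors (counts per length, scaled to a fixed total) were used for ratios within a library, and the deposited FPKM were not used. The coordinates in the tables differ from mm10: 1.7% of 35270 symbols and none of the 31 members had the start and end of RefSeq GRCm38.p6.

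Counts were fitted over 12968 genes with edgeR 4.0.16 in R 4.3.3 (filterByExpr with a minimum count of 10 and a minimum total of 15, TMM, glmQLFit, glmQLFTest, two-sided, Benjamini-Hochberg, threshold 0.05). Groups came from the sample titles. The SE is the log2 fold change over the square root of F, and intervals are 95%. The common biological coefficient of variation was 0.0893. Chi-square over degrees of freedom was 2.05 to 81.1 for replicate pairs, above sampling noise, and floors of 3 counts cover counting error only. Alternatives were other scalings and filters, DESeq2 1.42.0, limma-voom (limma 3.58.1), the replicate number as a block, a lowess correction for exon length (span 0.5), a threshold of 0.01 and each library left out. Leaving out Pmvk, or members with at least 10% shared or overlapping sequence, was chosen after seeing the data. The fit was tested on simulated data. Permutations used scipy 1.17.1.

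The members and lists were chosen with earlier results of these data known. The genes named are all members, Acod1, Irf1 and Gbp2 as a check of the treatment (a further check gene is not reported here), and the 8 largest changes among called genes of the further pathway list with a mean of at least 1 CPM. Markers of T, B, erythroid and fibroblast cells summed to at most 1.6 CPM in any library.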

Additional observations from a re-analysis of the deposited data

How the results depend on the processing

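Over 16 settings each (15 for Scd1), the calls of Pmvk, Dhcr7, Scd2, Fads1, Elovl5 and Elovl6 and their direction held. Of all member values under other settings, 401 kept direction and side of the threshold, 36 lost a call, 17 gained one, 40 changed sign without a call and 1 reversed: Sc5d, at 0.003, was called at -0.167 with total counts alone. The fatty acid arm had 4 to 7 members lower and 0 higher in every setting, 4 at a threshold of 0.01 and 4 to 7 without 1 library. Over these settings the share of all genes called lower ran from 9.44% (no filter, 21580 genes) to 34.9% (total counts alone).

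With upper quartile scaling (shift of all genes -0.147; 30.6% of calls higher, against 53.8%), 1 sterol gene was higher, 1 regulator lower and 15 other pathway genes lower, the arms' medians were -0.150 (sterol) and -0.432 (fatty acid), and 4097 genes were lower in all. With total counts alone (shift -0.170; 26.9% of calls higher), 1 sterol gene was higher and 10 lower, 1 regulator lower, 7 other pathway genes higher and 18 lower, the medians were -0.171 and -0.454, and 1666 genes were higher and 4520 lower. With 5 CPM in 3 samples, which drops Scd1, the medians were -0.030 and -0.398. With the length trend removed, 1 regulator was higher and 1 lower. At a threshold of 0.01, 1 sterol gene was higher and 1 lower, 2 other pathway genes were lower and 1242 genes were lower in all. For the moved values the cause was not tested, apart from the shift of all genes that each scaling makes. Without 1 library, the sterol arm had 1 to 2 members higher and 1 to 5 lower, with a median from -0.044 to 0.015, 0 to 1 regulators were lower, and 2 to 8 other pathway genes were lower.

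The labels do not say whether the replicate numbers pair the libraries. Same-numbered libraries' deviations correlated at 0.306, 0.144 and -0.0703, and not every library correlated best with its own number. So few libraries cannot decide whether they were paired. With the replicate block, 5050 genes were called against 4715, 2723 of them higher, and the arms' medians differed by -0.283. Restricted to members without shared sequence the difference was -0.366, without Pmvk -0.268 and without Acly -0.366. Counts per library were low for Scd1 (92 to 131), Elovl7 (38 to 84) and Fads6 (64 to 127), and how depth bears on their calls was not tested.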
